A study of Mus musculus with 4 samples.

Results

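The genes described here are 32 genes of glucose breakdown and of the response to low oxygen, measured in mouse microvascular smooth muscle cells. They were chosen by name, as 16 glycolytic enzymes, 6 genes of glucose and lactate transport and flux control, 9 targets of the hypoxia response that are not glycolytic enzymes, and Hif1a itself. Every probe whose accession maps to one of the 32 symbols was taken, which gave 49 of the 41174 non-control probes and 32 of the 18217 genes with a probe. All 32 genes had at least 1 probe that passed the brightness filter, and 47 of the 49 probes were tested.

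All cells were taken from Rap1a knockout mice, male and on C57BL6, according to the labels. Rap1a belongs to the Ras family of GTPases and acts in cell adhesion. One RNA of each pair came from cells transduced with an empty shuttle vector, and the other from cells given a shuttle vector called RapCA, which no label explains further. The series title sets knockout against rescue, so the comparison asks which transcripts differ between the 2 vectors. Virus was given overnight in serum-free medium at plating, after growth in 10% serum, and the cells recovered for 48 h in 0.5% serum. Each of 4 two-colour arrays held 1 RNA of each kind, with the empty vector in Cy5 and RapCA in Cy3 on every array, so dye and vector cannot be told apart. Separate cultures or animals are not stated for the replicates, which are labelled biological, so the tests measure the spread between these 4 RNA pairs, which may be technical. No label says how the knockout cells were obtained beyond the mouse, or that oxygen was varied.

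Values are log2 ratios, with the Cy3 signal (labelled RapCA, here the RapCA channel) over the Cy5 signal (labelled vector, here the vector channel), so positive values mean more RapCA signal. A gene is called when the Benjamini-Hochberg adjusted p of limma, fitted over all 23497 tested probes, is under 0.05, and each gene is represented by its brightest tested probe. The Rap1a probe gave -0.46, -1.02, -1.31 and -1.47 on replicates 1 to 4, lower in the channel labelled RapCA, with both channels well above background on all 4 arrays. Rap1a signal in both channels, and less of it in the RapCA channel, runs against labels of a knockout and its rescue. Its close relative Rap1b had 1.55, 0.80, 0.52 and 0.32, higher in the RapCA channel (adjusted p = 0.0134), and no label says which Rap gene the vector carries. Which part of the transcript the probe reads, deleted or retained, is not known here. Directions therefore follow the dye labels only. Replicate 1 stood apart: across probes its ratios correlated with the others at 0.69 to 0.78, against 0.93 to 0.98 among replicates 2 to 4. Of 8 smooth muscle markers 6 passed the background threshold in each channel of every array, while Myocd and Des were not above background on any. The summed net signal of 8 fibroblast markers, before any normalization, was 46077 to 48661 in the RapCA channel and 5420 to 16511 in the vector channel. Of 7 tested, 6 were called higher, against 28.9% of all genes tested, among them Col14a1, which was above background only in the RapCA channel. Pdgfra was not called (0.17; adjusted p = 0.560) and lay below 0 on replicates 2 to 4, and Lum was not above background on any array. Of 11 cell cycle genes tested, 11 were called lower in the RapCA channel, against 24.9% of all genes tested. Smooth muscle markers were called higher at 3 of 6 tested: Tagln (2.13), Myl9 (1.53) and Acta2 (0.54, but -0.24 and not called with median centring). Pericyte markers were called higher at 3 of 4 (Notch3 2.79, Pdgfrb 1.78, Cspg4 0.88) and lower at Kcnj8 (-0.40). Kcnj8 was dim, and above background in the RapCA channel on 3 of the 4 arrays. Of 8 endothelial markers Pecam1, Cdh5, Tie1 and Emcn were not above background on any array, while Vwf (-2.03) and Kdr (-0.75) were lower and Tek (1.16) higher. Tek was above background in the vector channel on 2 of the 4 arrays. Of 7 macrophage markers Ptprc, Adgre1, Itgam and Fcgr1 were not above background on any array, and Cd14 and Csf1r were above background and not called. Lyz2 was called higher (0.52), but it was above background only in the RapCA channel and among the dimmest probes tested. The part of these differences in the results below was not tested, and in bulk RNA fewer cells of a type and less RNA per cell cannot be told apart.

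Glycolysis splits glucose into pyruvate in the cytosol, and lactate dehydrogenase turns pyruvate into lactate, which leaves the cell through monocarboxylate transporters. When oxygen is low, the transcription factor HIF-1, made of Hif1a and Arnt, escapes the prolyl hydroxylases and raises transcription of many glycolytic genes together with genes of acid handling, mitophagy and vasodilation. Growth signals and Myc act on several of the same enzymes, so the glycolytic genes and the other hypoxia targets need not move together.

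The core of the hypoxia response element, to which HIF-1 binds, was looked for in RefSeq promoter windows of build GRCm38.p6, which reach from 250 bases before to 50 bases after each gene's start. The 2 forms searched were ACGTG and GCGTG, on both strands, where they read CACGT and CACGC; the palindrome CACGTG, an E-box, counts as 2 overlapping matches. Of 32851 windows of all genes, 43.8% held at least 1 core, and by gene 12628 of 27025 did. Ndrg1 had no entry. Of the other 31 members 28 held a core in at least 1 window: 13 of 16 enzymes, 6 of 6 transport and control genes, 8 of 8 hypoxia targets with an entry, and Hif1a. Of the members called lower 11 of 11 held a core, and of the members called higher with an entry 5 of 6 did. Of the members not called 12 of 14 did. By form, ACGTG was in 9 of 12 windows of members called lower and 4 of 13 of members called higher. It was in 12 of 20 windows of members not called and in 19.6% of all windows. GCGTG was in 10 of 12, 7 of 13 and 8 of 20, against 32.4%. Windows of 1 gene can overlap, the 13 windows of members called higher come from 6 genes, and these counts carry no test. The 6 stretches of 90 bases shown here, all upstream of the start, come from 6 members picked by name and do not stand for the others. The first 4 genes were lower and the last 2 higher in the RapCA channel, and capitals mark the cores.
Ldha, chr7:46845714-46845803, plus strand: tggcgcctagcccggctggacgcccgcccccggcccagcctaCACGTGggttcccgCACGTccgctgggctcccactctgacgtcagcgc
Pgam1, chr19:41911684-41911773, plus strand: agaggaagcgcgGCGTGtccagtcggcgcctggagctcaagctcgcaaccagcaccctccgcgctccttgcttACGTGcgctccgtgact
Slc2a1, chr4:119108654-119108743, plus strand: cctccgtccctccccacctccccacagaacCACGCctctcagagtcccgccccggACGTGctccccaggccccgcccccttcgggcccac
Egln3, chr12:54204035-54204124, minus strand: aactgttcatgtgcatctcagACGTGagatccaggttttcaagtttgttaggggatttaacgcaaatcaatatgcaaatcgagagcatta
Pfkl, chr10:78009860-78009949, minus strand: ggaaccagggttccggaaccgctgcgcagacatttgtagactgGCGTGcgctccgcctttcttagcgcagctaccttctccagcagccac
Adm, chr7:110627542-110627631, plus strand: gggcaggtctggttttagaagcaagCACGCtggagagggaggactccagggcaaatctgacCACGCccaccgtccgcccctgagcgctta
The Ldha stretch holds 3 matches, 2 of them in its E-box. In these stretches Ldha and Egln3 show only ACGTG, Pgam1 and Slc2a1 both forms, and Pfkl and Adm only GCGTG. Outside its stretch Ldha also had GCGTG. Form did not follow direction in other members: the windows of Mxi1, called higher, held ACGTG and no GCGTG. Those of Pfkp and Ldhb, called lower, held GCGTG and no ACGTG. A match is a stretch of letters and says nothing of binding in these cells.

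Across the 32 genes, 7 were higher and 11 lower in the RapCA channel, and 14 were not called. Among all 12388 genes tested 53.9% were called, 28.9% higher and 24.9% lower, so the number of called members was close to that of genes in general. A difference of at least 2-fold was called for 4 members (Ldha, Hk2, Ndrg1 and Adm), against 16.6% of all genes tested. The sign was the same on all 4 arrays for 22 members, against 62.8% of all genes. The genes of lactate formation and the glucose transporter Slc2a1 were lower, and the hypoxia targets were divided between the directions. Of the members, 2 of the 3 phosphofructokinase genes and both enolase genes were higher.

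Glycolytic enzymes were called lower at 6 of 16 and higher at 4, against 24.9% and 28.9% of all genes tested. Their median was -0.21, against 0.02 over all genes tested. At the entry to the pathway, where hexokinase traps glucose in the cell, Hk2 had ratios of -0.82, -1.13, -1.15 and -1.23 on replicates 1 to 4. Hk2 was thus lower on every array, by 2.12-fold on average (-1.08 ± 0.18, SD, n = 4; adjusted p = 0.000281). Its net signals, before any normalization, were 1455, 1407, 1146 and 1189 in the RapCA channel and 1927, 5275, 5188 and 4737 in the vector channel. The vector signal of replicate 1 was the lowest of the 4, as it was over all probes, where the median net signal in that channel was 37 on replicate 1 and 75.5 to 83.5 on the others.

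Hk1, the hexokinase found in most tissues, gave different answers by probe. Its brightest probe had 0.38, -0.12, -0.24 and 0.02 and was not called (0.01 ± 0.27; adjusted p = 0.955). Of its 4 other tested probes 3 were called higher, at 0.85 ± 0.07, 0.79 ± 0.40 and 0.90 ± 0.19, and the fourth stood at 0.06 ± 0.20. The brightest probe was designed on another RefSeq transcript than the other tested probes, and which exons each probe reads is not known here. With the mean over its probes, Hk1 was called higher at 0.52 (adjusted p = 0.00339), and with array quality weights its brightest probe was called lower at -0.17 (adjusted p = 0.0337).

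The next reactions prepare and commit the sugar. Gpi1, which converts glucose 6-phosphate to fructose 6-phosphate, had -0.28, -0.13, -0.17 and -0.11 and was not called (-0.17 ± 0.08; adjusted p = 0.174). Phosphofructokinase, the main point of commitment, is built from subunits of 3 genes, and these differed in direction. Pfkl, the liver-type subunit, had 0.34, 0.79, 0.69 and 0.65 (0.62 ± 0.19; adjusted p = 0.00352). Pfkm, the muscle-type subunit, had 0.58, 0.47, 0.58 and 0.71 (0.59 ± 0.10; adjusted p = 0.00243). Both were higher on all 4 arrays. Pfkp, the platelet-type subunit, had -0.08, -0.30, -0.40 and -0.45, lower on all 4 (-0.31 ± 0.16; adjusted p = 0.0462). The ratio of Pfkl exceeded that of Pfkp by 0.42, 1.09, 1.09 and 1.09 on replicates 1 to 4, and that of Pfkm exceeded it by 0.66 to 1.16. These differences are given as a description, with no test. The call of Pfkp was lost in 11 of 17 alternatives, among them leaving out replicate 2, 3 or 4 (adjusted p = 0.178, 0.218 and 0.144), and its second, dimmer probe stood at 0.06 ± 0.15.

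Aldolase and triose phosphate isomerase, which split the sugar and interconvert the products, were not called by their brightest probes. Aldoa had -0.49, -0.13, -0.10 and -0.19 (adjusted p = 0.122), lowest on replicate 1. Its second probe, almost as bright, was called lower at -0.52 ± 0.18 (adjusted p = 0.00625). Aldoc, the brain-type aldolase, had -0.10, -0.15, -0.41 and -0.11 (adjusted p = 0.165). Tpi1 had -0.06, 0.22, 0.02 and 0.14 (0.08 ± 0.13; adjusted p = 0.543), with signs on both sides of 0.

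Of the enzymes that harvest energy, Gapdh, which oxidises glyceraldehyde 3-phosphate and is often used as a reference gene, had -0.54, -0.37, -0.43 and -0.30. It was lower on all 4 arrays (-0.41 ± 0.10; adjusted p = 0.0112), and its second probe gave the same size (-0.41 ± 0.10). The call was lost without replicate 2 or 3 (adjusted p = 0.0680 and 0.0790) and in the ratios that the scanner software computed (-0.20; adjusted p = 0.250). Pgk1, which makes the first ATP of the pathway, had 0.18, -0.44, -0.52 and -0.63 and was not called (-0.35 ± 0.36; adjusted p = 0.0907). Replicate 1 was the one array above 0, and without it Pgk1 was called lower at -0.53 (adjusted p = 0.000978).

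Pgam1, the phosphoglycerate mutase, had -0.65, -0.89, -1.12 and -1.11, lower on every array (-0.94 ± 0.22; adjusted p = 0.000669). Both enolases among the 32 genes act on the next step and had the opposite sign. Eno1, the widespread form, had 0.35, 0.59, 0.54 and 0.33 (0.45 ± 0.13; adjusted p = 0.00909), a call lost without replicate 2 or 3 (adjusted p = 0.0794 and 0.0725). Eno2, the neuronal form, had 0.41, 0.34, 0.53 and 0.82 (0.52 ± 0.21; adjusted p = 0.00815), and its second probe was called as well (0.51 ± 0.27). Eno3, an enolase that is not one of the 32 genes, was called lower at -0.75 ± 0.42 (adjusted p = 0.00791), so the enolases did not share a direction. Pkm, the pyruvate kinase that follows and not one of the 32 genes, had 0.16, 0.39, 0.34 and 0.21, above 0 on all arrays but not called (adjusted p = 0.0542).

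Ldha, the lactate dehydrogenase subunit that favours lactate, had the most even ratios of the 32 genes, at -1.23, -1.19, -1.25 and -1.25. It was 2.35-fold lower in the RapCA channel (-1.23 ± 0.03; adjusted p = 8.72e-05). Its net signals were 55394, 37199, 33525 and 36684 in the RapCA channel against 188605, 188212, 204792 and 177060 in the vector channel. A second Ldha probe was called lower too, but at -0.39 ± 0.16 (adjusted p = 0.0177), so the size depends on the probe. Ldhb, the subunit of heart tissue, had -0.85, -0.65, -0.60 and -0.41, lower on all arrays (-0.63 ± 0.18; adjusted p = 0.00289). Many abundant glycolytic genes, Gapdh, Ldha and Pgam1 among them, have processed copies in the genome that can share a probe, so their signals may mix.

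**Figure D1:**
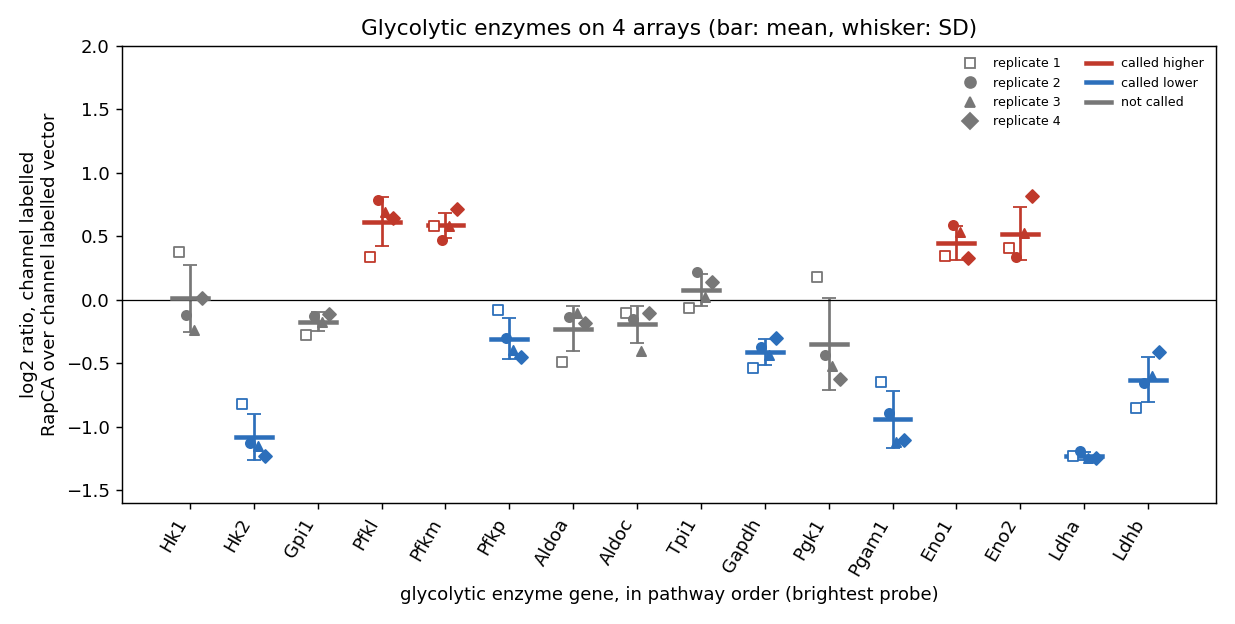
Log2 ratio of the RapCA over the vector channel for the 16 glycolytic enzyme genes in pathway order, by the brightest probe. Symbols are the 4 arrays (open squares: replicate 1), horizontal bars the mean and whiskers the SD, coloured by call. Hk2, Pgam1 and Ldha lie lowest, near -1, and Pfkl, Pfkm, Eno1 and Eno2 lie above 0 on all 4 arrays.

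Several enzyme probes were among the brightest on the arrays. Of their 16 probes, 6 (Aldoa, Tpi1, Gapdh, Pgk1, Pgam1 and Ldha) were among the brightest 1% of all tested probes, against 171 of all 12388 genes and 0 of the 9 hypoxia targets. Probes in that brightest class had a median ratio of -0.35 over 235 probes even after the intensity-dependent (loess) normalization, with the middle 50% from -0.78 to -0.03. Gapdh (-0.41), Pgk1 (-0.35) and Aldoa (-0.23) lay close to that median and Tpi1 (0.08) lay above it. Pgam1 and Ldha lay below the middle 50%, by 0.59 and 0.88 under the class median. These values are by the brightest probe. The second Aldoa probe, in the same class, had -0.52. The second probes of Gapdh, Pgk1 and Ldha were in the class below, where the median was 0.08, and had -0.41, -0.25 and -0.39.

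When each array was centred on its median instead, the brightest class fell to a median of -1.09 and all probes to -0.14, and the share of called probes that were higher went from 53.3% to 40.1%. The enzyme median was then -0.74, with 9 of 16 called lower and 0 higher. Of all 23497 tested probes 6546 were then called in either direction, against 11656 with loess. Pfkl, Pfkm and Eno2 were not called at 0.36, 0.27 and 0.38 (adjusted p = 0.107, 0.312 and 0.205), and Eno1 stood at -0.03 (adjusted p = 0.893). Pfkp was not called either, at -0.45 (adjusted p = 0.251). Gpi1, Aldoa, Tpi1 and Pgk1 were then called lower, at -0.86, -1.04, -0.62 and -1.05 (adjusted p = 0.00802, 0.00340, 0.0196 and 0.0303).

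**Figure D2:**
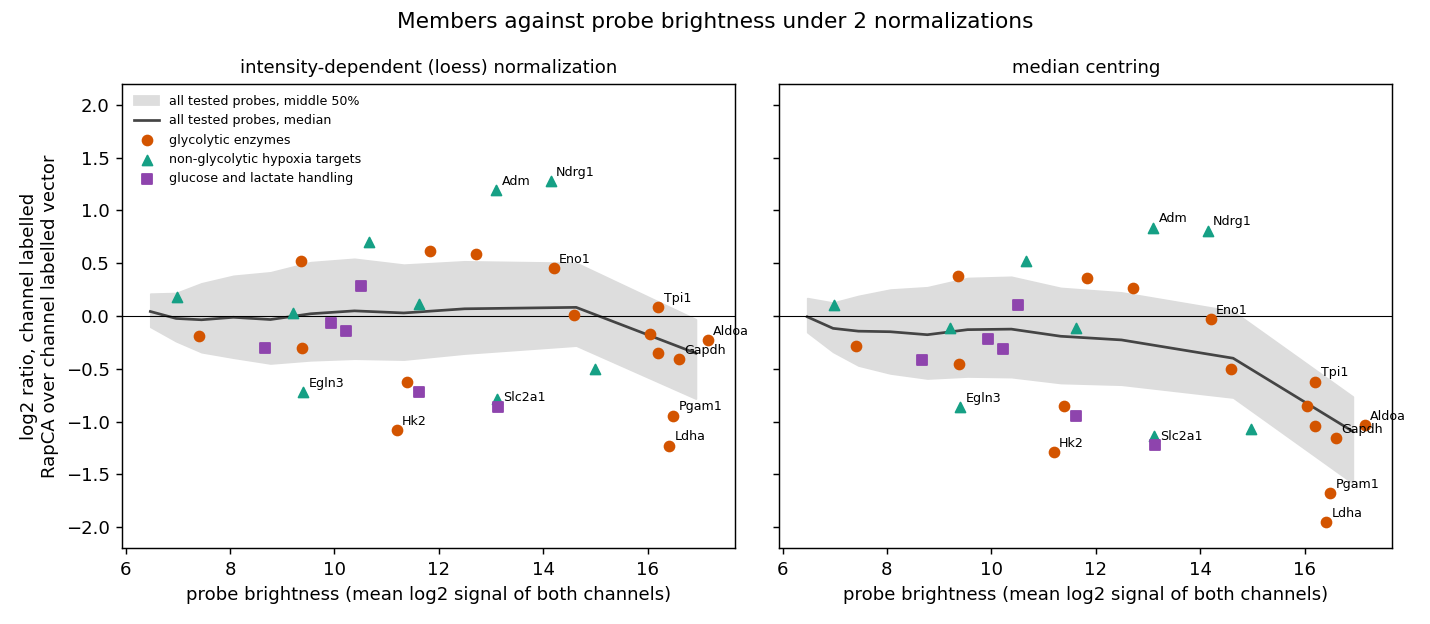
Log2 ratio of RapCA over vector against probe brightness (mean log2 signal of both channels) for the member genes, after loess normalization (left) and median centring (right). The line and band are the median and middle 50% of all tested probes in brightness classes. The band bends down at the bright end, to -0.35 on the left and -1.09 on the right, where 6 enzymes lie.

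The genes that move glucose and lactate across the membrane or set the flux were lower or not called, with a median of -0.22. Of these 6 genes 2 were called, both lower, against 53.9% of all genes tested called and 24.9% called lower. Slc2a1, the glucose transporter GLUT1, had -0.88, -0.66, -1.20 and -0.70, lower on all arrays by 1.82-fold (-0.86 ± 0.25; adjusted p = 0.00118). Slc16a1, the monocarboxylate transporter MCT1, had -0.15, -0.71, -0.91 and -1.11 (-0.72 ± 0.41; adjusted p = 0.00912). All 3 of its probes were called lower, each with replicate 1 nearest 0. Its call was lost with median centring (-0.95; adjusted p = 0.0988).

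Slc16a3, which encodes MCT4, the transporter of lactate export in glycolytic cells, had -1.08 on replicate 1 and -0.12, -0.12 and 0.12 on the others (adjusted p = 0.245). With median centring it was called lower, at -0.42 (adjusted p = 0.0472). Replicate 1 was the lowest array for MCT4 and the highest for MCT1, so the 2 transporters were not ordered alike across arrays. The kinase-phosphatases Pfkfb3 and Pfkfb4, which set the level of an activator of phosphofructokinase, had 0.34, -0.13, -0.39 and -0.41 (adjusted p = 0.437) and -0.46, -0.16, 0.08 and 0.28 (adjusted p = 0.735). Without replicate 1 Pfkfb3 was called lower at -0.31 (adjusted p = 0.0168). Pdk1, the kinase that holds pyruvate back from mitochondria, had 0.90, 0.24, -0.03 and 0.01 by its brightest probe (adjusted p = 0.205). Its second probe was called higher, at 0.74 ± 0.39 (adjusted p = 0.00679), and in both probes replicate 1 was the highest.

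Of the 9 hypoxia targets outside glycolysis 3 were called higher, 3 lower and 3 not called, with a median of 0.12. Of all genes tested 28.9% were called higher and 24.9% lower, so these counts were close to those of genes in general. Ndrg1, a differentiation- and stress-related gene, had 1.15, 1.19, 1.33 and 1.44, the largest mean of the 32 genes (1.28 ± 0.13, 2.42-fold; adjusted p = 0.000105). Adm, which encodes the vasodilator peptide adrenomedullin, had 1.35, 1.00, 1.12 and 1.28 (1.19 ± 0.16, 2.28-fold; adjusted p = 0.000166). The net signals of Adm were 11759, 10768, 9016 and 10691 in the RapCA channel and 4141, 9757, 8743 and 7489 in the vector channel. Both genes were higher on all 4 arrays. Mxi1, an antagonist of Myc, had 0.83, 0.62, 0.68 and 0.67 (0.70 ± 0.09; adjusted p = 0.00103), a call lost with median centring (0.52; adjusted p = 0.163).

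Bnip3, a mitochondrial protein that marks the organelle for autophagy, had -0.04, -0.75, -1.13 and -1.22 (-0.78 ± 0.54; adjusted p = 0.0142). Replicate 1 lay near 0 and the other 3 well below it. The call was lost without replicate 3 or 4 (adjusted p = 0.0590 and 0.0645) and with median centring (-1.13; adjusted p = 0.0734). Ddit4, or REDD1, an inhibitor of mTORC1, had -0.50, -0.64, -0.22 and -0.63 (-0.50 ± 0.19; adjusted p = 0.00866). It was lower on all arrays, but not called without replicate 2 (adjusted p = 0.0667) or with the channels of an array taken as unpaired (adjusted p = 0.0870).

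The prolyl hydroxylases mark HIF for destruction and are themselves induced by it. Egln3 had -0.76, -0.49, -0.89 and -0.74, lower on all arrays (-0.72 ± 0.17; adjusted p = 0.00143). Egln1, the main oxygen sensor, had 0.43 on replicate 1 and between -0.03 and 0.07 on the others by its brightest probe (adjusted p = 0.429), and its second probe was called higher at 0.53 ± 0.17 (adjusted p = 0.00570). The ratio of Egln1 exceeded that of Egln3 by 1.19, 0.57, 0.89 and 0.71 on replicates 1 to 4. Ankrd37, of unsettled function, had -0.24, 0.31, 0.06 and -0.03 (adjusted p = 0.882). Car9, the carbonic anhydrase that is a widely used hypoxia marker, had 0.03, 0.12, 0.22 and 0.36 (0.18 ± 0.14; adjusted p = 0.181). Without replicate 1 Car9 was called higher at 0.24 (adjusted p = 0.0357). Hif1a had 1.01, 0.46, 0.28 and -0.12 and was not called, at 0.40 ± 0.47 (adjusted p = 0.0989). It was called higher without replicate 4, at 0.58 (adjusted p = 0.0414). With array quality weights, which called 17946 of all 23497 tested probes, it was called higher at 0.31 (adjusted p = 0.00209). Without replicate 1 it stood at 0.20 (adjusted p = 0.171). Its activity is set mainly by protein stability, which these arrays do not measure.

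**Figure D3:**
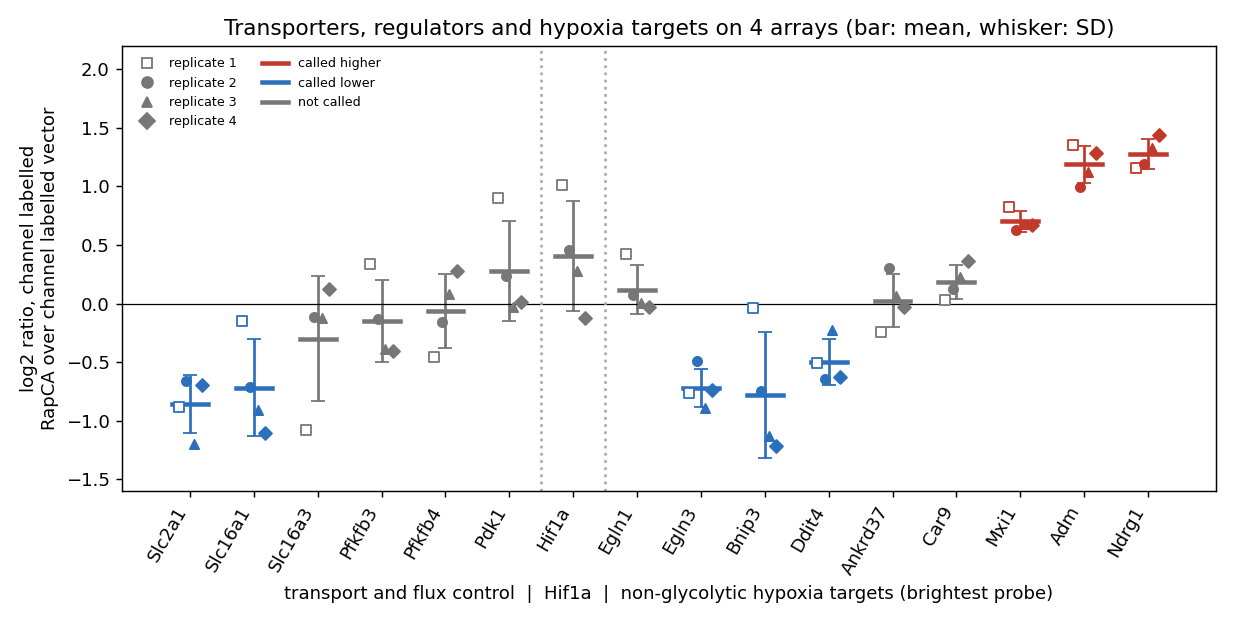
Log2 ratio of RapCA over vector for the 6 transport and flux control genes, Hif1a and the 9 non-glycolytic hypoxia targets, by the brightest probe. Symbols are the 4 arrays (open squares: replicate 1), bars the mean and whiskers the SD. Adm and Ndrg1 lie at 1.00 or above on all arrays, while Slc2a1 and Egln3 lie at -0.49 or below; for Bnip3 and Slc16a3 replicate 1 lies away from the others.

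The glycolytic enzymes were set against the hypoxia targets by the difference of their medians on each array. It was -0.12, -0.26, -0.38 and -0.12 on replicates 1 to 4, below 0 on all 4, with a mean of -0.22 ± 0.13. With median centring it was -0.61 ± 0.16, and with the mean over the probes of each gene -0.34. It carries no p, since the genes were chosen with results of these data known. The 2 groups overlapped widely: the enzymes ranged from -1.23 to 0.62 and the targets from -0.78 to 1.28. The medians also rest on probes of unlike brightness, with 9 of 16 enzymes and 2 of 9 targets among the probes above the 90th brightness percentile.

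**Figure D4:**
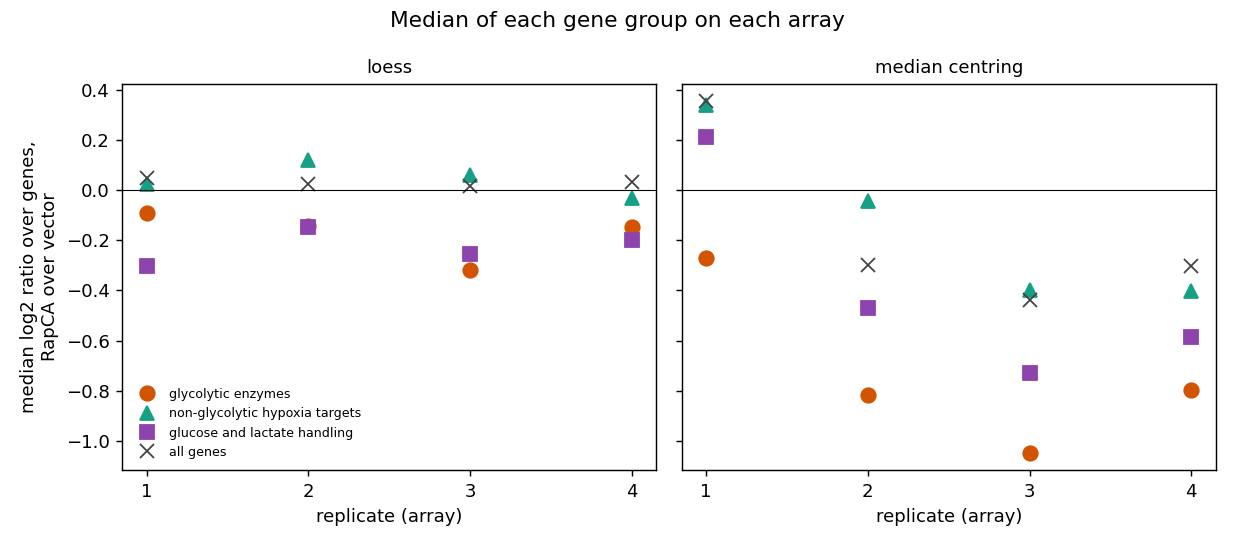
Median log2 ratio over the genes of each group on each of the 4 arrays, after loess normalization (left) and median centring (right). The enzyme median lies below the hypoxia target median on every array in both panels, and on the right all groups are highest on replicate 1.

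The 11 member genes with more than 1 tested probe show how far the values depend on the probe. The probes of Gapdh, Pgk1, Eno2, Slc16a1 and Pfkfb3 shared their sign and their call. Those of Ldha shared sign and call but differed in size, and those of Hk1, Pfkp, Aldoa, Pdk1 and Egln1 differed in the call. Over all member probes tested, 13 of 47 were called higher and 16 lower. Of all tested probes 26.4% were called higher and 23.2% lower, 49.6% in either direction.

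**Figure D5:**
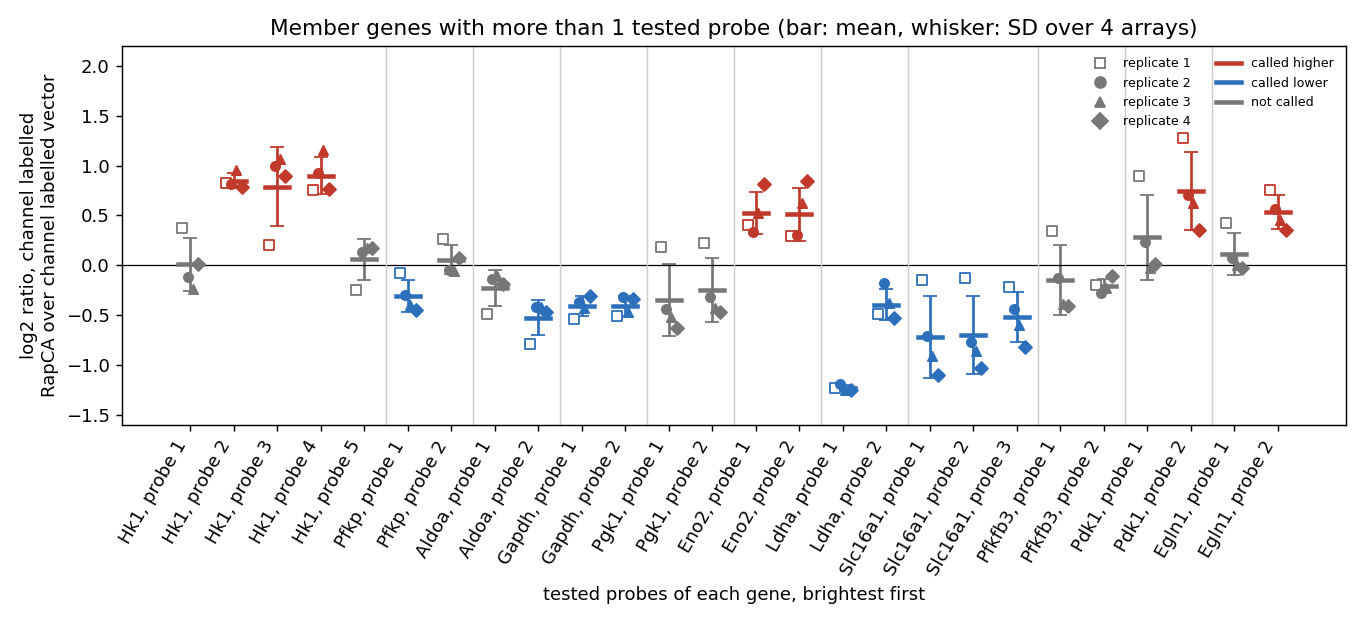
Log2 ratio of RapCA over vector for each tested probe of the 11 member genes with more than 1 tested probe, brightest first within a gene. Symbols are the 4 arrays, bars the mean and whiskers the SD, coloured by call. The Hk1 probes fall into 3 near 0.8 to 0.9 and 2 near 0, and the Ldha probes lie at -1.23 and -0.39.

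Replicate 1 was the highest or the lowest of the 4 arrays at 25 of 32 members, against 86.2% of all genes tested. The median SD over the 4 arrays was 0.19 for the members and 0.26 for all genes, and over replicates 2 to 4 it was 0.13 for both. Of the 18 called members, 8 had the same call in all 17 alternatives: Hk2, Pgam1, Ldha, Ldhb, Slc2a1, Egln3, Ndrg1 and Adm.

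Neighbouring genes of the pathway were as mixed. The counts below stand against 28.9% of all genes tested called higher and 24.9% called lower. Of 9 other glycolysis genes tested, 4 were lower and 1 higher (2 without replicate 1). These were led by Pfkfb1, a further kinase-phosphatase, at -1.32 ± 0.13, Bpgm, which makes 2,3-bisphosphoglycerate, at -1.23 ± 0.07, and Pfkfb2 at 0.72 ± 0.17. Of 10 genes of pyruvate entry into mitochondria, 3 were higher and 3 lower. Both carrier subunits were higher, Mpc1 at 1.02 ± 0.16 and Mpc2 at 0.62 ± 0.09, and Pdhx of the pyruvate dehydrogenase complex was lower at -0.36 ± 0.07; none of the 10 was called with median centring. The count called lower was 5 without replicate 1 and 0 without replicate 2, 3 or 4. Of 6 pentose phosphate genes, 3 were lower and 2 higher (0 higher without replicate 2 or 3, 1 without replicate 4, and 2 lower and 0 higher with median centring), with Taldo1, Pgd and Rpe at -0.78 ± 0.12, -0.78 ± 0.12 and -0.64 ± 0.34.

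Among 14 genes of oxygen sensing and HIF partners, 3 were higher and 2 lower. Without replicate 1, 5 were higher, and without replicate 2 or 3, 1 was lower. Arnt, the partner of Hif1a, had 0.98 ± 0.24, Hif1an, an asparagine hydroxylase that blocks HIF activity, had 0.74 ± 0.23, and Epas1, which encodes HIF-2 alpha, had 0.93 ± 0.58. With median centring 1 was higher and 2 were lower, the lower ones not the same 2 genes as with loess. Arnt and Epas1 were then not called (adjusted p = 0.0889 and 0.187). Of 31 genes on a wider list of hypoxia targets, which also holds Pfkfb3 of the 32 genes (not called) and Gys1 of the glycogen list, 14 were higher and 5 lower, and their median was 0.22; centring on the array median gave -0.03, 7 higher and 3 lower. The count lower was 8 without replicate 1 and 3, 2 and 3 without replicates 2, 3 and 4. Those with the smallest p were Igfbp3, an IGF-binding protein, at 2.69 ± 0.42, Errfi1, an inhibitor of EGF receptors, at -1.95 ± 0.29, and the collagen lysyl hydroxylase Plod1 at 1.55 ± 0.33. Vegfa, the angiogenic factor, had 0.49, 0.05, -0.12 and 0.14 and was not called (adjusted p = 0.388).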

How the data were processed

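Total RNA was labelled and hybridised to 4 two-colour Agilent arrays on 1 slide with the same scan time, so slide and scan cannot be examined as batches. The deposited intensity values are median spot and background brightness, with no normalization, per the file headers (Feature Extraction 10.7.3.1; 10.9 per the submitters' processing notes). The deposited log10 ratios are Cy5 over Cy3 after that software's background and dye correction, per the file headers.

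Intensities were corrected with normexp (offset 50), normalized by loess within arrays (span 0.3, control spots at weight 0) and averaged per probe, without outlier spots. A probe was kept if 1 channel or both exceeded background, by the scanner software's flag, on every array, and the mean log2 ratio was tested against 0 with limma (lmFit, eBayes) on at least 3 arrays. The number of arrays limits the precision. No spot was saturated. Symbols came from RefSeq accessions and were found for 64.8% of probes. Alternatives to each step were run, and leaving out each array in turn. The scripts were tested on simulated data. The ± values are SDs over arrays. All members are named; of each list of neighbouring genes, the 3 with the smallest p, and Pkm and Vegfa; 1 gene that this rule names is not reported here. Members, lists and tests were chosen with earlier results of these data known. R 4.3.3, limma 3.58.1, data.table (version 1.17.8), Python 3.11.15, pandas 2.3.3 and matplotlib 3.10.9 were used.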

Additional observations from a re-analysis of the deposited data

Results flagged for a closer look

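Among the 32 member genes and 5 group values, each with 4 arrays, 1 stood out for a single array far from the rest: Aldoc had -0.41 on replicate 3 and -0.15 to -0.10 on the others. Chance flags about 1 in 20 such groups.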

How the results depend on the processing

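Of the 18 called members 8 held their call in all 17 alternatives; the rest lost it in at least 1. With median centring 6546 probes were called, 0 enzymes were higher, the medians were -0.74 for the enzymes, -0.37 for transport and flux control genes and -0.11 for hypoxia targets, and the enzyme-minus-target difference was -0.61. It turned the sign of Hk1 (-0.50), Tpi1 (-0.62), Eno1 (-0.028), Ankrd37 (-0.11) and Egln1 (-0.11), of which Tpi1 passed the test. Array quality weights gave 17946 called probes, 10 enzymes lower and a difference of -0.36, and turned Hk1 (-0.17, past the test at adjusted p = 0.0337) and Pfkfb4 (0.016). That -0.36 was taken between the enzyme and target medians over the weighted gene values (-0.23 and 0.12). The -0.22 of the main fit is instead a mean of per-array differences, so these values are not comparable. The same medians in the main fit were -0.21 and 0.12, close to the weighted ones. The wider loess span turned Hk1 (-0.025) and Tpi1 (-0.015). The scanner software's ratios turned Hk1 (-0.031), Aldoa (0.054) and Ankrd37 (-0.0077), and the series table turned Hk1 (-0.031), Aldoa (0.054), Ankrd37 (-0.0076) and Gpi1 (0.0066) and gave an enzyme median of -0.089. The mean over probes gave 1 transport and flux control gene higher, a target median of 0.18 and a difference of -0.34. Apart from the change of measure behind the -0.36, the cause of these shifts was not tested.

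Leaving out 1 array at a time, the transport and flux control median ranged from -0.31 (without replicate 4) to -0.17, Hk1 from -0.11 to 0.093, Pfkfb4 from -0.18 to 0.069 and Ankrd37 from -0.070 to 0.11. Called probes ranged from 7907 to 15738, the latter without replicate 1. With no replicate block, the channels of an array taken as unpaired, 10267 probes were called and among the members the call of Ddit4 was lost (-0.50; adjusted p = 0.0870). Mapping probes by gene name was planned and not run, since the scanner files used here list no such column. With 4 arrays on 1 slide and no dye swap, precision rests on these arrays alone, and Car9 and Aldoc were the dimmest members.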

Other observations

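Of 12 tested genes of glycogen handling and other sugar transporters, 7 were called higher and 3 lower, against 28.9% and 24.9% of all genes tested. Their median was 0.82, and centring on the array median gave 0.63, 6 higher and 1 lower. Pygb and Pygl, the brain and liver forms of glycogen phosphorylase, had 1.99 ± 0.26 and 1.55 ± 0.17. Gbe1, the glycogen branching enzyme, was lower at -1.13. The transporters Slc2a8, Slc2a10 and Slc2a6 were higher at 1.67, 1.21 and 1.06, while Slc2a3 was lower at -0.62, the direction of Slc2a1. Eno3, Gbe1 and the 4 transporters fall outside the rule for named genes and were chosen after their values were seen.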
